A study of Mus musculus with 10 samples.

Results

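The genes described here are 10 genes of MHC class I antigen presentation, taken by symbol from a table of 57010 gene identifiers. They are the heavy chains H2-K1 and H2-D1, the light chain B2m, the peptide transporter subunits Tap1 and Tap2, the loading factor Tapbp, the immunoproteasome subunits Psmb8, Psmb9 and Psmb10, and the transcriptional activator Nlrc5. All 10 were found, each under 1 identifier. The values come from bulk RNA sequencing of retinas from 10 mice, aged 6 to 8 weeks when they were divided into groups. In 1 group, 5 mice were injected into the vitreous with AAV2-GFP, an adeno-associated virus vector in the AAV2 capsid. The other 5 mice received AAV206-GFP, the same reporter in the AAV206 capsid, which the study's title presents as directed at the retinal pigment epithelium. Retinas were taken on day 14 after injection. Every mouse thus carried a vector and a GFP reporter. Retinas without a vector were not part of the data used, and each value compares the capsids with each other, not with an untreated eye. The labels used here give no strain, sex or vector dose, and they do not say what drives GFP or whether a sample holds 1 or both eyes.

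MHC class I molecules display peptides from inside the cell to CD8 T cells and are also read by natural killer cells. Proteins are cut by the proteasome, in which the interferon-inducible subunits Psmb8, Psmb9 and Psmb10 can replace the constitutive subunits Psmb5, Psmb6 and Psmb7. The peptides are pumped into the endoplasmic reticulum by Tap1 and Tap2 and loaded, with the help of tapasin (Tapbp), calreticulin, calnexin and Pdia3, onto a heavy chain paired with B2m. Nlrc5 is drawn to a conserved promoter module of class I genes and raises their transcription. The healthy retina is an immune-privileged tissue in which class I expression is low, and interferons are its main known inducers.

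The libraries held 10989843 to 12752604 counts each, so that 3 counts, used here as the floor for telling a level from 0, correspond to 0.235 to 0.273 counts per 1000000 counts (CPM). This floor covers counting error only. The tissue label matched its markers: 5 rod photoreceptor genes summed to 49311 to 52481 CPM in AAV2-GFP retinas and to 52933 to 58151 CPM in AAV206-GFP retinas. On the first principal component of the 500 most variable genes, which held 45.2% of the variance, AAV2-GFP mouse 1 stood apart at 30.3. AAV2-GFP mouse 4 was next at 13.1, and the other 8 libraries lay between -9.45 and 3.49. Mice are numbered here by the replicate number in their labels.

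Of the members, 7 lie on chromosome 17 (GENCODE M21, build mm10), in and beside the mouse MHC. Tapbp occupies chr17:33915899-33929292 and H2-K1 chr17:33996017-34000347. Psmb9, Tap1, Psmb8 and Tap2 follow one another within chr17:34181987-34216321, and H2-D1 lies at chr17:35262730-35267499. Tap1 and Psmb9 are read from opposite strands and their gene models share 212 bases. Whether counting used strand is not given in the sources used here, so reads from those bases cannot be told apart. B2m lies on chromosome 2 (chr2:122147686-122153083), and Nlrc5 (chr8:94434356-94527272) and Psmb10 (chr8:105935735-105938444) on chromosome 8.

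Promoter windows from RefSeq (GRCm38.p6, 250 bases before to 50 after a gene's start) were matched for 8 members, and none for Tap2 and Nlrc5. The pieces below are shown because the heavy chains and B2m, which moved together across the mice, carry short blocks of the kind known from class I promoters. Capitals in the first 3 pieces mark, for the heavy chains, an opening box of 11 bases of the NF-kB type known from class I promoters and a match to GAANNGAAA on the opposite strand. In B2m they mark GAAA, 2 bases of any kind and GAAA again. These last motifs are of the interferon response element type, and all motifs were searched on both strands. The box was searched only as the exact 11 bases of H2-K1. Other forms of the NF-kB type were not searched and are not marked, in the B2m piece as well.
H2-K1, chr17:34000429-34000458, minus strand: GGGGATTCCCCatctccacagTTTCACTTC
H2-D1, chr17:35262923-35262952, plus strand: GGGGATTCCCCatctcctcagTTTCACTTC
B2m, chr2:122147548-122147577, plus strand: GAAACTGAAAatgggaaagtccctttgtaa
The H2-K1 and H2-D1 pieces were identical at 29 of 30 bases. Their opening box of 11 bases was present in 0.0307% of the 32544 different windows in the table, GAANNGAAA in 7.57% and the longer motif of B2m in 3.45%. A shorter form, GAAANNGAA, lies within that longer motif and was found in 8.53% of windows.

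The second set of pieces runs from TGACG to ATTGG, letters that belong to the X2 and Y boxes of the module through which Nlrc5 is known to act.
H2-K1, chr17:34000359-34000388, minus strand: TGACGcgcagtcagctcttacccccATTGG
H2-D1, chr17:35262993-35263022, plus strand: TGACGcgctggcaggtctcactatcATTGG
B2m, chr2:122147609-122147638, plus strand: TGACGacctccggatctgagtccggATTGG
In all 3 genes exactly 20 bases separated the boxes. That spacing was found in 0.0953% of all windows, in 27 genes, of which 4 belong to the class I genes listed here (H2-K1, H2-D1, B2m and the heavy chain gene H2-M3). Between the boxes the sequences differed: of those 20 bases H2-K1 and H2-D1 shared 13, and H2-K1 and B2m shared 3. TGACG alone was in 20.9% and ATTGG alone in 37.4% of windows, on either strand, and Tap1 and Psmb9 held each of them at other spacings. TTCNNNGAA, a form of the interferon gamma activated site, was found in Psmb8 alone among the members and in 8.33% of all windows. These are matches of letters and were not measured as bound sites.

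The members were lower with AAV206-GFP in the group averages, but the difference rested on a few AAV2-GFP retinas. In the edgeR quasi-likelihood test of AAV206-GFP against AAV2-GFP, adjusted over all 15539 tested genes by the Benjamini-Hochberg method, 4 of the 8 tested members fell (H2-K1, B2m, Tap1 and Psmb8) and none rose at an adjusted p under 0.05. Over all tested genes 5.30% were called lower, 5.95% higher and 11.2% in either direction. The median log2 fold change of the 8 tested members was -1.87, against -0.0095 over all tested genes, and all 8 had an unadjusted p under 0.05, as did 28.0% of all genes. Psmb9 and Nlrc5 did not pass the filter on low counts and did not enter the test. In bulk tissue, fewer cells of a type and less RNA per cell cannot be told apart.

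The same mice were at the top for each member. AAV2-GFP mouse 1 had the highest level of the 10 libraries in all 10 members, which holds for 11.3% of all tested genes, and mouse 4 was second in all 10. The pair held the top places in 2.77% of all tested genes. AAV2-GFP mouse 3 was the third in 9 members, and mice 2 and 5 exceeded every AAV206-GFP mouse in 2 members and 1 member. Relative to the AAV206-GFP median, the median over the members was 16.3-fold in AAV2-GFP mouse 1, 3.08-fold in mouse 4, 1.54-fold in mouse 3, 1.06-fold in mouse 2 and 0.871-fold in mouse 5. In 9 of the 10 members the groups overlapped, with Tapbp the exception. Over all tested genes 9.78% had groups that did not overlap.

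**Figure D1:**
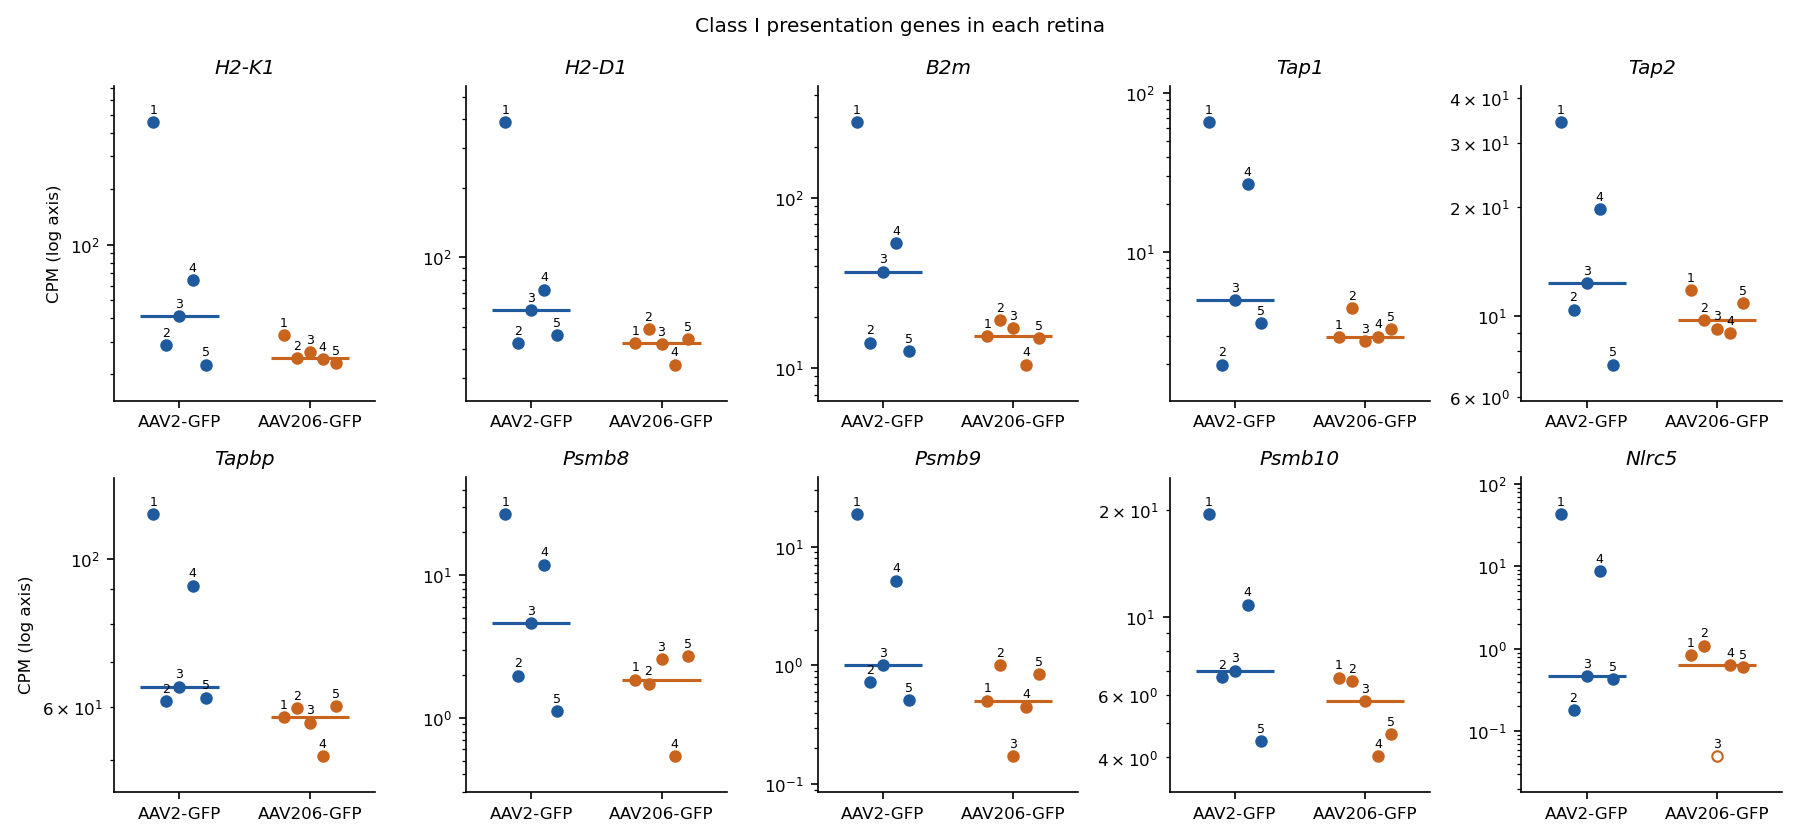
Level of each of the 10 class I presentation genes in every retina, in CPM on a log axis. Points are mice with their replicate number (blue, AAV2-GFP; orange, AAV206-GFP), lines are group medians, and the open point for Nlrc5 marks a level of 0 drawn at 0.05. AAV2-GFP mice 1 and 4 are the highest points in each panel.

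The heavy chains bind the peptide and differ in the peptides they accept. H2-K1 was at 457, 28.7, 41.2, 64.3 and 22.6 CPM in AAV2-GFP mice 1 to 5, and at 32.6, 24.4, 26.3, 24.2 and 22.98 CPM in AAV206-GFP mice 1 to 5. AAV2-GFP mice 1, 3 and 4 were above every AAV206-GFP mouse, and mouse 5 was below all of them. The group means were 123 ± 188 and 26.1 ± 3.81 CPM (SD, n = 5). On the log2 scale H2-K1 fell by 2.23, with a standard error of 0.66 and an edgeR adjusted p of 0.0414. H2-D1 was at 387, 42.4, 59.0, 72.5 and 46.0 CPM with AAV2-GFP and at 42.4, 48.9, 41.8, 34.2 and 44.1 CPM with AAV206-GFP. Mice 1, 3 and 4 again stood above the AAV206-GFP range, while mice 2 and 5 lay inside it. Its log2 fold change of -1.52 (standard error 0.50) did not pass (edgeR adjusted p = 0.0590). Although these genes resemble each other closely, their values were whole numbers in all 10 libraries. How the authors' counting placed reads that fit more than 1 heavy chain gene was not tested.

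B2m encodes the light chain without which most class I heavy chains do not reach the cell surface. Its levels were 278, 14.1, 36.9, 54.1 and 12.6 CPM in AAV2-GFP mice 1 to 5 and 15.4, 19.2, 17.2, 10.5 and 15.01 CPM in AAV206-GFP mice 1 to 5. The AAV2-GFP levels spanned 22.2-fold and those with AAV206-GFP 1.82-fold, and AAV2-GFP mice 2 and 5 fell within the AAV206-GFP range. B2m fell by 2.35 on the log2 scale (standard error 0.66, edgeR adjusted p = 0.0331).

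Of the peptide transporter subunits, Tap1 had the larger estimated fold change. Tap1 was at 65.6, 1.98, 5.03, 26.9 and 3.59 CPM with AAV2-GFP and at 2.94, 4.47, 2.76, 2.96 and 3.31 CPM with AAV206-GFP. Mouse 1 was 22.1-fold and mouse 4 was 9.07-fold above the AAV206-GFP median, while mouse 2 had the lowest level of all 10 libraries. Tap1 fell by 2.64 on the log2 scale (standard error 0.73, edgeR adjusted p = 0.0304). Tap2, its partner in the transporter, was at 34.2, 10.4, 12.3, 19.7 and 7.35 CPM with AAV2-GFP and at 11.8, 9.76, 9.23, 8.97 and 10.9 CPM with AAV206-GFP. Here mouse 1 was 3.502-fold and mouse 4 was 2.02-fold above the AAV206-GFP median. Tap2 did not pass, with a log2 fold change of -0.73 (standard error 0.30, edgeR adjusted p = 0.131). The difference between Tap1 and Tap2 was not tested.

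Tapbp encodes tapasin, which bridges the transporter and the empty class I molecule. It was at 117, 61.2, 64.4, 91.1 and 62.0 CPM with AAV2-GFP and at 57.9, 59.7, 56.9, 50.7 and 60.2 CPM with AAV206-GFP. All 5 AAV2-GFP mice lay above all 5 AAV206-GFP mice, although mice 2, 3 and 5 exceeded the highest of them by little. The log2 fold change of -0.47 (standard error 0.15) was the smallest of the tested members and did not pass (edgeR adjusted p = 0.0535). Its deposited values carried decimals in all 10 libraries, unlike those of the other members, so reads were apportioned by estimation and the level of Tapbp is less certain.

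Of the immunoproteasome subunits, Psmb8 and Psmb9 were low in most retinas and Psmb10 somewhat higher. Psmb8 was at 27.0, 1.98, 4.64, 11.9 and 1.11 CPM in AAV2-GFP mice and at 1.85, 1.73, 2.59, 0.538 and 2.71 CPM in AAV206-GFP mice. Mice 1, 3 and 4 were above the AAV206-GFP range, and Psmb8 fell by 2.29 on the log2 scale (standard error 0.67, edgeR adjusted p = 0.0378). Psmb9 was at 18.9, 0.719, 1.01, 5.16 and 0.513 CPM with AAV2-GFP and at 0.505, 1.00, 0.172, 0.449 and 0.848 CPM with AAV206-GFP. The deposited counts of Psmb9 ran from 2 to 209, and mice 1 and 4 stood clear of the AAV206-GFP range while mouse 3 was at its upper end. Psmb10 was at 19.5, 6.74, 7.04, 10.8 and 4.44 CPM with AAV2-GFP and at 6.73, 6.57, 5.78, 4.04 and 4.66 CPM with AAV206-GFP. Mice 1 to 4 were all above the AAV206-GFP mice, mouse 2 by little, and mouse 5 lay among them. The Psmb10 log2 fold change of -0.80 (standard error 0.31) did not pass (edgeR adjusted p = 0.107).

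Each of these subunits takes the place of a constitutive one, so its level was also expressed as a percentage of that counterpart in the same library, as CPM over CPM and without correction for gene length. Psmb8 reached 64.3% of Psmb5 in AAV2-GFP mouse 1 and 20.5% in mouse 4, against 4.37%, 6.62% and 2.07% in mice 2, 3 and 5. With AAV206-GFP it lay between 1.53% and 5.99%. Psmb9 was at 31.1% and 7.80% of Psmb6 in AAV2-GFP mice 1 and 4, at 0.875% to 1.25% in the other 3 AAV2-GFP mice, and at 0.321% to 1.73% with AAV206-GFP. Psmb10 was at 36.9% and 18.0% of Psmb7 in mice 1 and 4, at 12.5%, 9.49% and 8.40% in mice 2, 3 and 5, and at 7.37% to 10.9% with AAV206-GFP. The ratios of mice 1 and 4 were thus above every AAV206-GFP retina for all 3 pairs, that of mouse 2 for Psmb10 and that of mouse 3 for Psmb8, and those of mouse 5 lay inside the AAV206-GFP range for all 3.

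**Figure D2:**
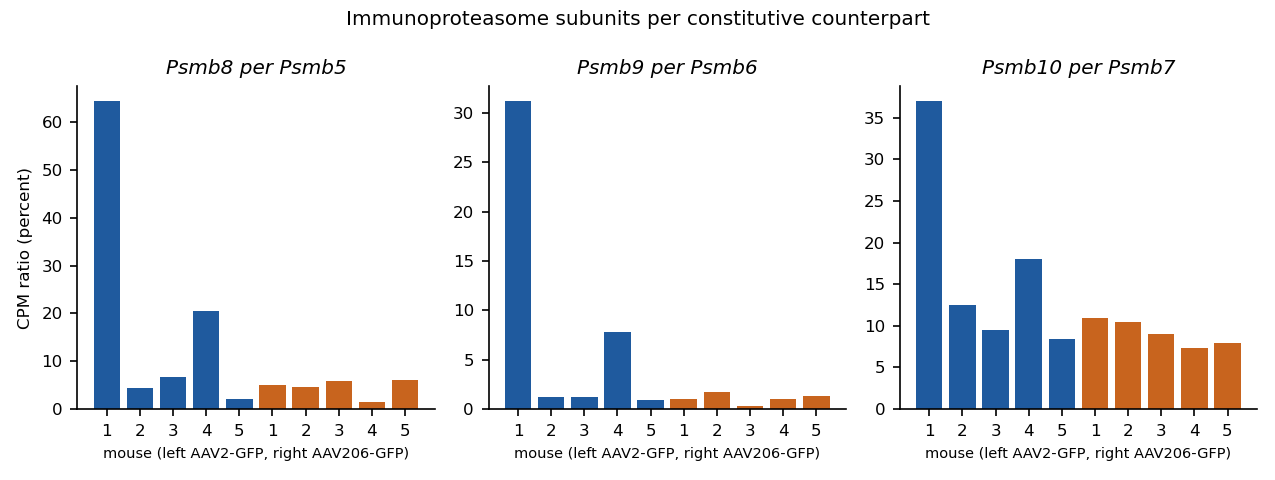
Level of each immunoproteasome subunit as a percentage of its constitutive counterpart (CPM over CPM) in each retina; bars are mice 1 to 5 of AAV2-GFP (blue) and of AAV206-GFP (orange). For Psmb8 per Psmb5 AAV2-GFP mouse 1 stands at 64.3% and mouse 4 at 20.5%, above the highest AAV206-GFP retina at 5.99%.

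Nlrc5, the activator of the pathway, had the widest range. It was at 43.3, 0.180, 0.464, 8.79 and 0.427 CPM in AAV2-GFP mice 1 to 5 and at 0.841, 1.09, 0, 0.628 and 0.594 CPM in AAV206-GFP mice 1 to 5. Mice 1 and 4 were 69.0-fold and 14.002-fold above the AAV206-GFP median, whereas AAV2-GFP mouse 2 lay under the floor of 3 counts. The count of 0 in AAV206-GFP mouse 3 allows a level of up to 0.258 CPM. AAV2-GFP mice 2, 3 and 5 were all below the AAV206-GFP median.

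Per kilobase of merged exon length, B2m was the most abundant member in AAV206-GFP retinas, with a median of 17.9 CPM per kilobase (12.2 to 22.3). H2-D1 (16.4, 13.3 to 19.0) and Tapbp (16.0, 13.97 to 16.6) followed, and the ranges of these 3 overlapped. H2-K1 came next at 8.29 (7.82 to 11.1), clear of its neighbours on either side, and then Psmb10 at 3.39 (2.37 to 3.95) and Tap2 at 2.58 (2.37 to 3.12), which overlapped. Psmb8 (0.547), Tap1 (0.541), Psmb9 (0.138) and Nlrc5 (0.0739) were the lowest, all in CPM per kilobase. The constitutive subunits stood far above their immunoproteasome counterparts on the same scale, at 41.7 for Psmb5, 28.7 for Psmb6 and 18.0 for Psmb7. Psmb7 (16.0 to 18.9) overlapped B2m, H2-D1 and Tapbp. The order of the constitutive subunits depends on the lengths. Without them the AAV206-GFP medians were 37.5 CPM for Psmb5, 53.8 CPM for Psmb6 and 61.65 CPM for Psmb7. In AAV2-GFP mouse 1 the level of B2m reached 324 CPM per kilobase, and those of H2-K1 and H2-D1 were 156 and 150. The lengths were taken from GENCODE M21, which need not be the annotation behind the counts.

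Other heavy chains followed the members in part. The list of related heavy chains held 18 genes, of which 11 were tested, 4 fell, 1 rose and 6 did not pass. Beside this list and those below, 5.30% of all tested genes were called lower and 5.95% higher. H2-Q6 and H2-Q7, nonclassical chains of the Qa region, were at 96.5 and 96.1 CPM in AAV2-GFP mouse 1, at 0.449 to 4.72 CPM in AAV2-GFP mice 2 to 5 and at 0.807 to 2.68 CPM with AAV206-GFP. Their log2 fold changes of -4.12 and -3.51 (standard errors 1.18 and 1.07; edgeR adjusted p = 0.0350 and 0.0453) were the largest falls among the tested genes of these lists. These near-identical genes carried decimals in 2 and 4 libraries, and the share of reads given to each is uncertain. H2-T23, the mouse Qa-1 chain that presents peptides to natural killer cell receptors, was at 48.6, 4.76, 10.1, 28.5 and 4.87 CPM with AAV2-GFP and at 3.90 to 6.47 CPM with AAV206-GFP (log2 fold change -1.92, standard error 0.52, edgeR adjusted p = 0.0280).

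H2-T22, a chain recognised by gamma delta T cells, was at 37.5, 8.09, 10.1, 19.4 and 8.24 CPM with AAV2-GFP and at 6.51, 6.44, 6.53, 5.84 and 7.70 CPM with AAV206-GFP. All 5 AAV2-GFP mice were above all 5 AAV206-GFP mice, and the log2 fold change was -1.33 (standard error 0.35, edgeR adjusted p = 0.0254). Without mouse 1 the H2-T22 log2 fold change was -0.79 (edgeR adjusted p = 0.0315), and without mice 1 and 4 it was -0.42 and did not pass (edgeR adjusted p = 0.141). H2-T22 carried decimals in all 10 libraries. The gene that rose was Hfe, a class I-like regulator of iron uptake, from 15.1 ± 1.496 to 20.2 ± 3.14 CPM (SD, n = 5; log2 fold change 0.42, standard error 0.12, edgeR adjusted p = 0.0313). The log2 fold changes of H2-T24 (-0.14), Mr1 (0.02) and Cd1d1 (0.46) did not pass.

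The chaperones that load class I molecules differed between the groups in another way, with a shift in every mouse. Calr encodes calreticulin, a lectin chaperone of the endoplasmic reticulum that holds the heavy chain during loading. It was at 300, 319, 329, 319 and 316 CPM with AAV2-GFP and at 160, 147, 152, 151 and 173 CPM with AAV206-GFP. The groups lay far apart and no AAV2-GFP mouse stood out, with a log2 fold change of -1.01 (standard error 0.06, edgeR adjusted p = 7.5e-08). Pdia3, the disulfide isomerase of the loading complex, was at 155, 146, 166, 170 and 148 CPM with AAV2-GFP and at 91.9, 92.1, 96.4, 96.1 and 91.0 CPM with AAV206-GFP. Its log2 fold change was -0.75 (standard error 0.06, edgeR adjusted p = 1.6e-06). Canx, which encodes the membrane-bound lectin chaperone calnexin, fell from 313 ± 12.5 to 263 ± 13.3 CPM (SD, n = 5; log2 fold change -0.25, standard error 0.06, edgeR adjusted p = 0.0113), again without overlap. All 3 serve glycoproteins of the endoplasmic reticulum in general and not class I molecules alone.

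The fourth of the 8 tested loading genes to fall was Tapbpl, which encodes the tapasin-related peptide editor. Its levels followed the members, at 15.4 and 11.3 CPM in AAV2-GFP mice 1 and 4, 4.36 to 7.04 CPM in mice 2, 3 and 5 and 2.87 to 5.51 CPM with AAV206-GFP (log2 fold change -1.01, standard error 0.31, edgeR adjusted p = 0.0448). Erap1, the aminopeptidase that trims peptides to length, had a log2 fold change of -0.0057 (edgeR adjusted p = 0.987), and Uggt1, Lnpep and Sec61a1 did not pass either.

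Of 8 constitutive, activator and assembly genes of the proteasome, Psmb5 alone passed. It was at 42.0, 45.3, 70.1, 57.8 and 53.7 CPM with AAV2-GFP and at 37.4, 37.5, 43.5, 35.3 and 45.3 CPM with AAV206-GFP, a log2 fold change of -0.44 (standard error 0.12, edgeR adjusted p = 0.0292). AAV2-GFP mouse 1, the highest for the immunoproteasome subunits, was the lowest of its group for Psmb5. Neither Psmb6 (log2 fold change -0.26, edgeR adjusted p = 0.116) nor Psmb7 (0.04, adjusted p = 0.810) passed. The interferon-inducible activator genes Psme1 and Psme2 did not pass (log2 fold changes -0.49 and -0.44, edgeR adjusted p = 0.132 and 0.102).

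Among 12 regulators of class I transcription, 11 were tested, 6 fell and none rose. Irf1, which binds the interferon response element of class I promoters, was at 32.0 and 20.3 CPM in AAV2-GFP mice 1 and 4, 4.13 to 4.72 CPM in the other 3 and 3.37 to 4.40 CPM with AAV206-GFP (log2 fold change -1.81, standard error 0.50, edgeR adjusted p = 0.0304). Mice 1 and 4 stood apart while the rest of the AAV2-GFP group lay in or just above the AAV206-GFP range. Irf9, a DNA-binding subunit of the complex that type I interferons activate, was at 57.2, 24.4, 24.5, 61.8 and 20.4 CPM with AAV2-GFP and at 17.2, 13.96, 14.7, 14.2 and 19.2 CPM with AAV206-GFP. It did not overlap between the groups, and mouse 4 was its highest (log2 fold change -1.25, standard error 0.27, edgeR adjusted p = 0.00821).

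Stat2, Irf8 and Rela also fell, by 0.53, 2.59 and 0.33 on the log2 scale (edgeR adjusted p = 0.0337, 0.0417 and 0.0378). Irf8, a factor of macrophages and dendritic cells, was at 35.5 CPM in AAV2-GFP mouse 1, 3.47 CPM in mouse 4 and at most 2.55 CPM with AAV206-GFP. Rfx5, Rfxap and Rfxank, which encode the DNA-binding complex of the promoter module, did not pass (log2 fold changes 0.18, -0.16 and 0.08). Of 10 interferon, receptor and kinase genes, 7 were tested, and Jak1 alone passed, rising from 131 ± 7.01 to 162 ± 18.5 CPM (SD, n = 5; log2 fold change 0.31, standard error 0.08, edgeR adjusted p = 0.0182). Ifnb1 had no count in any library, and Ifng reached 0.362 CPM in AAV2-GFP mouse 1 and was at 0 in the other 9. Over the 5 related lists together, 15 of 45 tested genes fell and 2 rose, with a median log2 fold change of -0.19. Of all tested genes 5.30% fell and 5.95% rose, with a median of -0.0095.

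**Figure D3:**
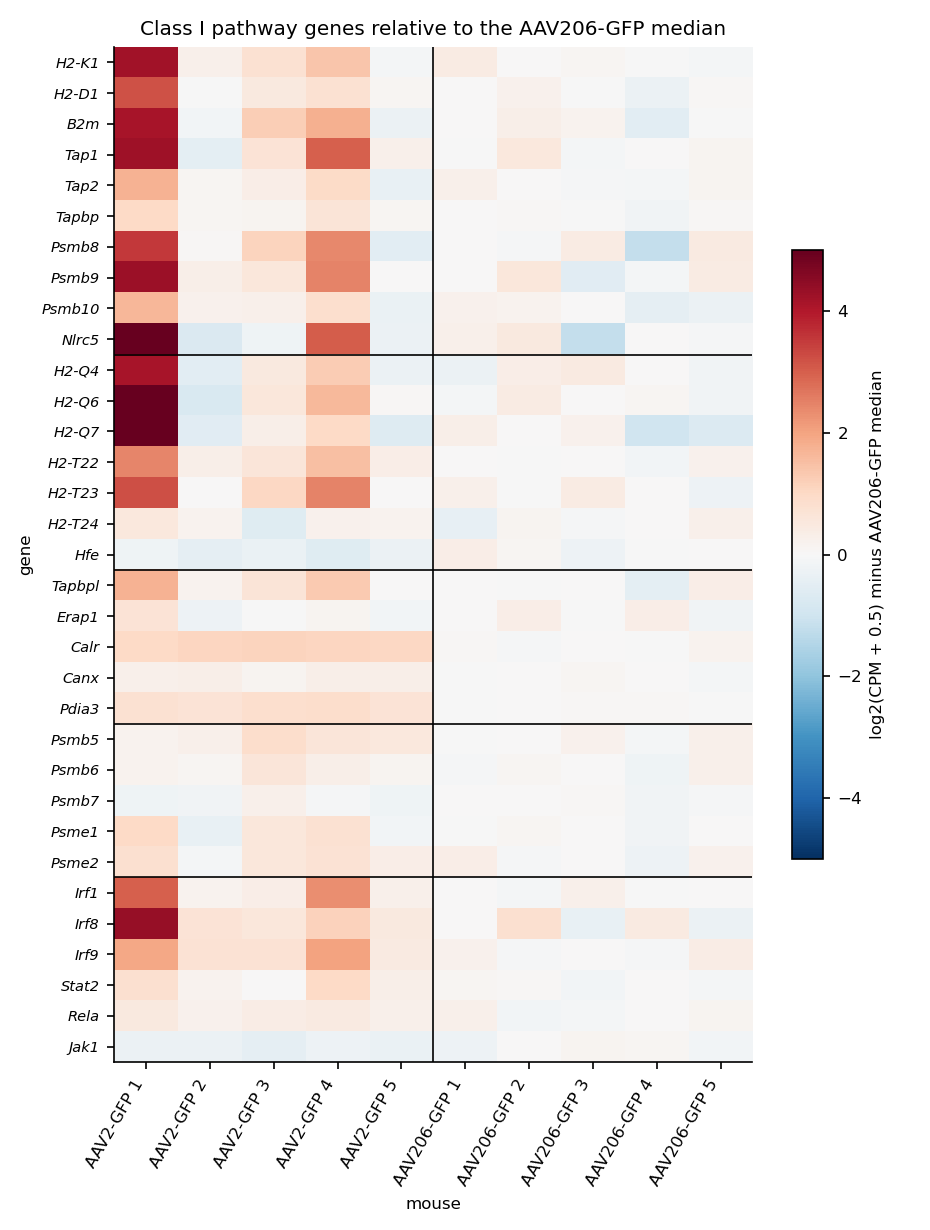
Members (top block) and related genes by mouse, as log2(CPM + 0.5) minus the AAV206-GFP median of the same gene; red is higher, blue lower, and the colour is capped at 5 in either direction. AAV2-GFP mice 1 and 4 carry the high values of the members, whereas Calr, at 300 CPM or more in each AAV2-GFP mouse, and Pdia3 are shifted across that whole group.

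Markers of leukocytes were high together with the members in AAV2-GFP mouse 1, and much less so in mouse 4. All 10 microglia and macrophage markers were detected, and their sum was 163 CPM in AAV2-GFP mouse 1, 19.4 to 30.6 CPM in the other AAV2-GFP mice and 17.2 to 21.8 CPM with AAV206-GFP. In mouse 4 this sum was 26.9 CPM, with 5 of the 10 markers above every AAV206-GFP mouse. Ptprc, the common leukocyte antigen, was at 39.0 CPM in mouse 1, 0.726 CPM in mouse 4 and 0.718 to 1.44 CPM with AAV206-GFP. All 11 T and natural killer cell markers were above every AAV206-GFP mouse in AAV2-GFP mouse 1, where they summed to 22.2 CPM. In AAV2-GFP mouse 4 they summed to 0.807 CPM, inside the AAV206-GFP range of 0.0897 to 0.949 CPM, and 7 of them (Cd3d, Cd3e, Cd3g, Cd2, Cd8b1, Trac and Nkg7) had no count. Gzmb (0.403 CPM) and Klrd1 (0.0807 CPM) were the 2 above every AAV206-GFP mouse there. Klrd1 lay under the floor of 3 counts, which is 0.243 CPM in that library, and cannot be told from 0.

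Markers of dendritic cells summed to 21.96 CPM in mouse 1, against 3.25 to 4.70 CPM in the other AAV2-GFP mice and 3.28 to 4.68 CPM with AAV206-GFP. Those of B lymphocytes and plasma cells summed to 34.2, 9.44 to 12.6 and 14.1 to 19.5 CPM in the same order. Neutrophil markers reached 6.69 CPM in mouse 1, all of it from Csf3r, and 1.77 CPM in mouse 4. With AAV206-GFP they summed to 0.0897 to 0.763 CPM, and S100a8 and Ly6g were at 0 in every library. The part of these cells in the level of the members in mouse 1 was not tested. In mouse 4 the T and natural killer cell sum, Ptprc and the dendritic cell sum lay within the AAV206-GFP range. The B lymphocyte and plasma cell sum lay below that range, and the microglia and macrophage sum and the neutrophil sum lay above it. Relative to the AAV206-GFP median, the members in mouse 4 ran from 1.57-fold (Tapbp) to 14.002-fold (Nlrc5), with a median of 3.08-fold. The part of these cells in the level of the members in mouse 4 was not tested either. Endothelial markers (189 to 209 CPM with AAV2-GFP, 151 to 178 CPM with AAV206-GFP), erythrocyte markers (67.8 to 85.8 and 101 to 319 CPM) and lens markers (9.43 to 28.2 and 0.547 to 10.4 CPM) also moved with the groups: 2 endothelial and 2 lens markers were called lower and 4 erythrocyte markers higher with AAV206-GFP. Their part in the results was not tested.

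**Figure D4:**
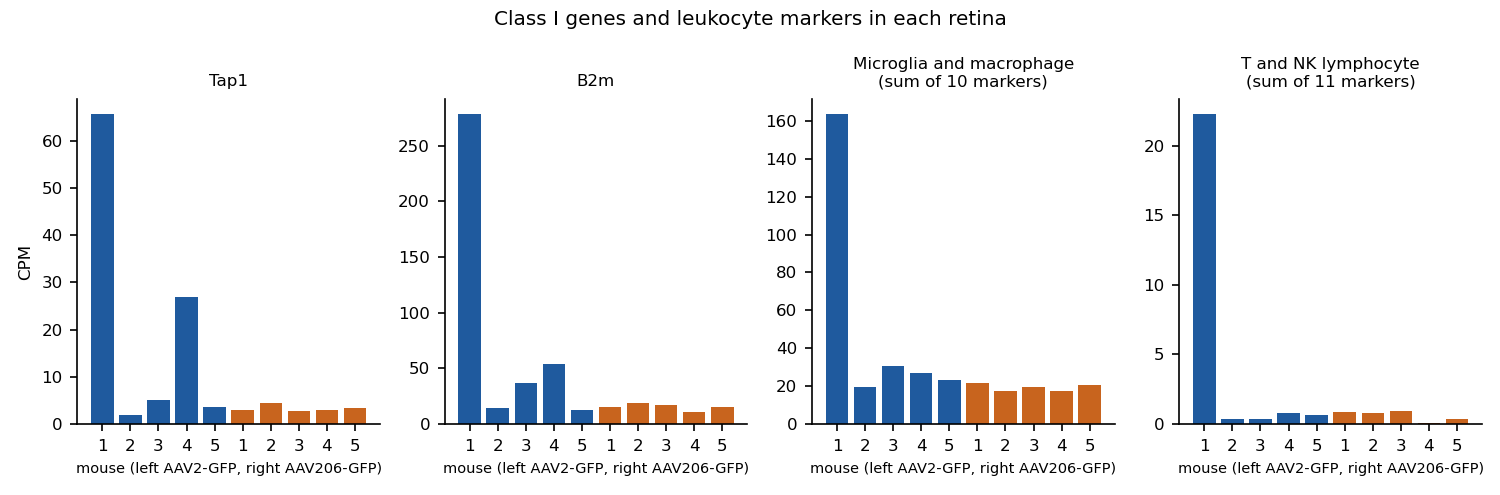
Level in CPM of Tap1, B2m, the sum of 10 microglia and macrophage markers and the sum of 11 T and natural killer cell markers in each retina; bars are mice 1 to 5 of AAV2-GFP (blue) and of AAV206-GFP (orange). Tap1 and B2m are highest in AAV2-GFP mice 1 and 4, and the leukocyte sums are highest in mouse 1, at 163 and 22.2 CPM.

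The calls on the members depended on single mice and on the tool. With limma-voom none of the 8 tested members passed, against 10.6% of all genes, and 1 had an unadjusted p under 0.05. Without AAV2-GFP mouse 1 none passed with edgeR, although 12.2% of all genes did and 6 of 8 members had an unadjusted p under 0.05, and the log2 fold changes shrank to -0.59 for H2-K1, -0.93 for B2m, -1.51 for Tap1 and -1.37 for Psmb8 (edgeR adjusted p = 0.0817, 0.0678, 0.0735 and 0.0975). Without mouse 4, B2m was the 1 member left (edgeR adjusted p = 0.0491), and 6.31% of all genes passed. No member passed with edgeR when any 1 of the 5 AAV206-GFP mice was left out, while 7 to 9 members had an unadjusted p under 0.05. In those fits, without AAV206-GFP mouse 1, 2, 3, 4 or 5 in turn, 8.81%, 6.82%, 7.64%, 6.72% and 11.0% of all genes passed. These shares are for the adjusted p. The share of all genes with an unadjusted p under 0.05 was counted in the main edgeR test alone, where it was 28.0%. Leaving out AAV2-GFP mouse 2, 3 or 5 gave 7, 5 and 9 members, where 11.4%, 7.93% and 8.44% of all genes passed. Psmb9 was among the members called without mouse 2 or 5, since those fits let it through the filter on low counts. With mice 1 and 4 both left out, a choice made after the data were seen, no member passed with edgeR, or had an unadjusted p under 0.05, while 6.18% of all genes did, and Tap1 had a log2 fold change of -0.12 (edgeR adjusted p = 0.849). Testing genes without a filter on low counts gave 8 of 10 members as lower, Psmb9 and Nlrc5 among them, where 6.42% of all genes were called. Of the related genes, 8 were called without mouse 1 and 5 without mice 1 and 4, with Calr, Pdia3, Psmb5, Irf9 and Jak1 past the threshold in both. Among those lost without mouse 1 were H2-Q6 (log2 fold change -0.76, edgeR adjusted p = 0.304), H2-Q7 (-0.43, 0.537), H2-T23 (-1.24, 0.0554), Irf1 (-1.17, 0.0620) and Irf8 (-0.72, 0.179), and Stat2, Rela and Tapbpl were lost as well.

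**Figure D5:**
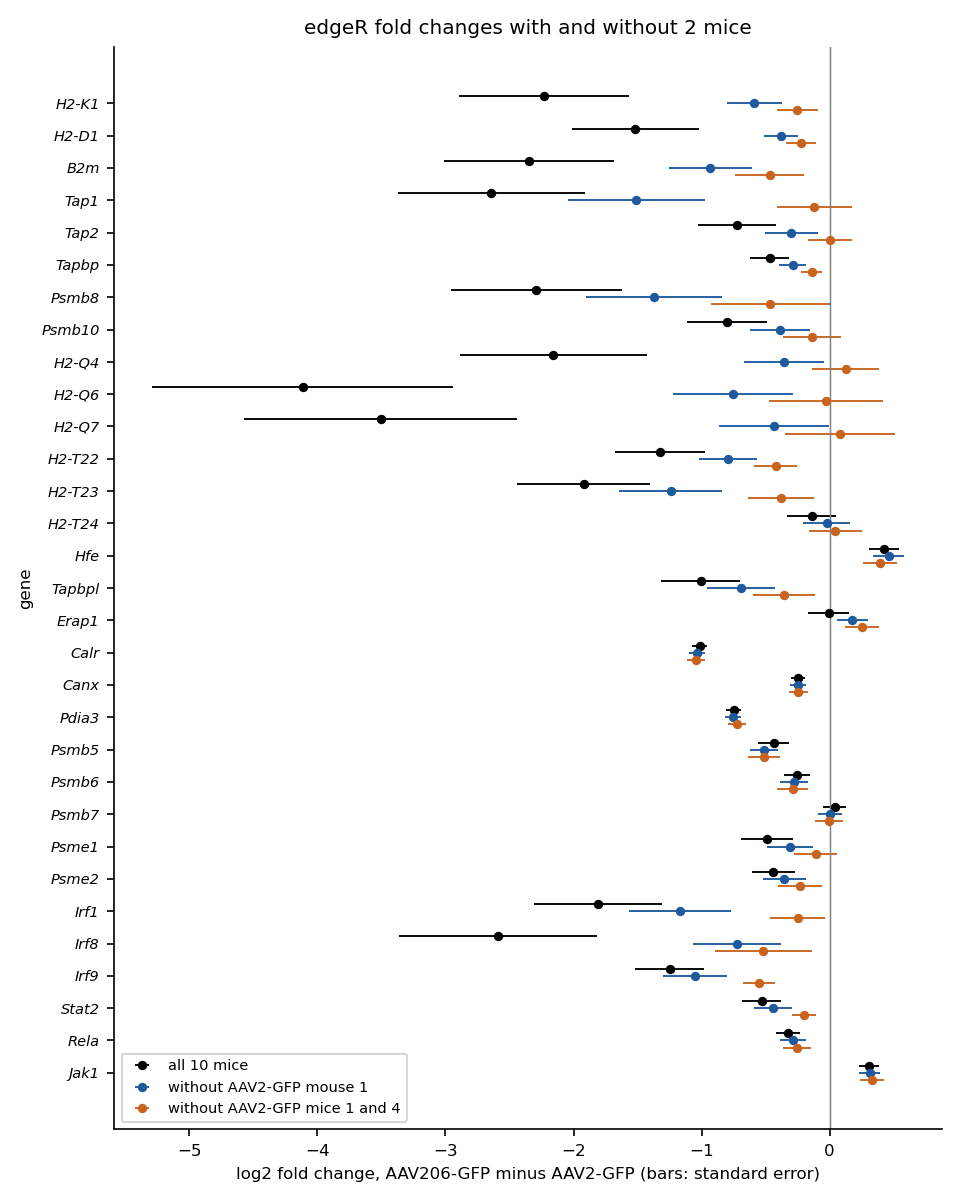
edgeR log2 fold change of AAV206-GFP against AAV2-GFP with its standard error, for tested members (from the top, H2-K1 to Psmb10) and related genes, in all 10 mice (black), without AAV2-GFP mouse 1 (blue) and without mice 1 and 4 (orange). H2-K1 goes from -2.23 to -0.59 and then to -0.25, while Calr stays at -1.01, -1.03 and -1.04.

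The genes whose levels over the 10 libraries were most like the mean profile of the 8 tested members were found by Pearson's r on log2(CPM + 1) among 15288 genes, all at 1 CPM or more on average. They were Gsdmd (r = 0.989), which encodes the pore-forming protein of pyroptosis, Gbp4 (0.982), an interferon-inducible guanylate-binding protein, and Ly6e (0.981), an interferon-inducible surface protein. The identifier ENSMUSG00000121501, which has no symbol in GENCODE M21, followed at 0.979. H2-T22 (0.976), the interferon-inducible GTPase Iigp1 (0.975), the progranulin gene Grn (0.975) and the interferon-inducible gene Mndal (0.973) completed the 8. Of the 8, Gsdmd, Iigp1, Mndal and ENSMUSG00000121501 averaged under 1 CPM with AAV206-GFP (0.397, 0.451, 0.415 and 0.198 CPM) and reached the minimum for this search through the high AAV2-GFP mice. AAV2-GFP mouse 1 weighs heavily in the correlations, and without it r was 0.896 to 0.958 over 9 libraries. Of the 8 genes Gbp4 and H2-T22 were called lower in the edgeR test, Gbp4 with a log2 fold change of -3.53 (standard error 0.88, adjusted p = 0.0179). Ly6e and Grn did not pass (edgeR adjusted p = 0.0873 and 0.0594), and the other 4 were too low to be tested.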

How the data were processed

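RNA was sequenced from retinas of 10 mice, 5 per vector, each a separate animal per the series design, as read pairs of 150 bases. The submitters' processing notes name STAR 2.7.10b, RSEM 1.3.1 and the build mm10; annotation, strand setting and filters are not given in the sources used here. The deposited values are each gene's estimated counts without scaling between libraries, and 5.95% of them carry decimals. GENCODE M21 symbols were attached by gene identifier to 52081 of 57010 rows. The members and all lists were chosen with earlier results of these data known.

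Estimated counts were rounded, and genes were kept by filterByExpr in edgeR 4.0.16 under R 4.3.3. This filter asked, in at least 5 libraries, for the CPM that 10 counts make in a library of median size. TMM factors were applied and a quasi-likelihood F test of AAV206-GFP against AAV2-GFP was fitted, with all 10 libraries and no covariate. Benjamini-Hochberg adjustment covered 15539 genes (threshold 0.05). The procedure was tested on simulated data. Positive log2 fold changes are higher with AAV206-GFP, and standard errors are the absolute log2 fold change over the square root of F. CPM are estimated counts over the TMM-scaled library size. The named genes are the members, every related gene past the threshold, Psmb5, Psmb6 and Psmb7, and the 8 genes most alike in profile, except 1 regulator that is counted but not reported here; other list genes and markers named were chosen after their values were seen. The alternatives were other scaling (relative log expression (RLE), library sizes), other filters, unrounded counts, DESeq2 1.42.0, limma-voom (limma 3.58.1) with and without sample weights, robust edgeR dispersions, the replicate number as a block and each library left out. The motifs GAANNGAAA and TGACG, the box of 11 bases and the spacing of 20 bases were chosen after the sequences were seen.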

Additional observations from a re-analysis of the deposited data

Results flagged for a closer look

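In 72 groups of 5 mice (36 named genes in each vector group), 12 held 1 mouse whose gap to its nearest neighbour as a share of the group's range exceeded Dixon's limit for 5 values; about 3.6 would be reached by chance. AAV2-GFP mouse 1 was the high mouse in 10 of them. Among the members these were H2-K1 (ratio 0.904), H2-D1 (0.913), B2m (0.844), Psmb9 (0.747) and Nlrc5 (0.800). The others were H2-Q6 (0.958), H2-Q7 (0.963), Irf8 (0.955), Gsdmd (0.756) and Grn (0.729); the last 2 were named for a profile like that of the members, which mouse 1 tops, so their ratios add nothing independent. The genes also move together, so the number expected by chance is a rough guide. Tap1, Tap2, Tapbp, Psmb8 and Psmb10 were under the limit, with AAV2-GFP mouse 4 between mouse 1 and the rest. Canx was low in AAV2-GFP mouse 3, at 291 CPM where the other 4 mice had 312 to 320 CPM (ratio 0.725). Irf1 was high in AAV206-GFP mouse 3, at 4.40 CPM against 3.37 to 3.65 CPM (ratio 0.735).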

How the results depend on the processing

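The number of members past the threshold was 4 of 8 tested, also with RLE factors, library sizes only and unrounded counts. It was 6 of 10 with a mean of at least 1 CPM, a filter that Psmb9 and Nlrc5, the 2 added calls, passed through the high AAV2-GFP mice. It was 3 with DESeq2, which gave no adjusted p for H2-K1 and H2-D1, and 8 of 10 without a filter on low counts. It was 0 with limma-voom, with voom sample weights, robust edgeR dispersions, the replicate block, and AAV2-GFP mice 1 and 4 both left out, where 1, 1, 6, 8 and 0 members had an unadjusted p under 0.05. The unadjusted share over all genes was not counted in these alternatives. Leaving out 1 library gave 0 to 9 members, 0 without AAV2-GFP mouse 1 or any AAV206-GFP mouse and 1 without AAV2-GFP mouse 4. For related genes the count was 17 of 45; it was 8 with limma-voom, 9 with sample weights, 7 with robust dispersions, 10 with the replicate block and 5 without mice 1 and 4, and 4 to 19 with 1 library left out (8 without AAV2-GFP mouse 1 or 4, and 6, 5, 6, 4 and 10 without AAV206-GFP mice 1 to 5). Over all genes, 1747 of 15539 passed in the main test. DESeq2 gave 2254, limma-voom 1643, voom sample weights 2157 and robust edgeR dispersions 1786. With sample weights and robust dispersions more genes passed than in the main test, while no member did. RLE factors, library sizes only and unrounded counts gave 1748, 1725 and 1742. Under the 1 CPM filter 1727 of 15289 genes passed, and 1825 of 28442 without a filter on low counts. The main count became 1085 with the replicate block and 985 without mice 1 and 4. With 1 library left out it ran from 991 to 1912 (991 without AAV2-GFP mouse 4, 1074 and 1056 without AAV206-GFP mice 2 and 4). Same-numbered mice correlated at -0.0518 to 0.0399 in their deviations from the group means, and 0 of 5 pairs matched best by number. These correlations showed no pairing by number, but such a check cannot exclude one. Of 30 fold changes, 3 turned sign, all with mice 1 and 4 left out: Tap2 (0.0053), H2-Q7 (0.0804) and Psmb7 (-0.0041). Over the alternatives, the adjusted p of Tap1 ran from 0.00374 to 0.849 and that of Calr from 8.3e-70 to 9.4e-06; Calr and Pdia3 passed in all 21. Depth limits Psmb9 and Nlrc5, whose lowest counts were 2 and 0. Apart from the smaller groups and the genes tested, the cause of these changes was not tested.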
